A study of Homo sapiens with 12 samples.

Results

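The genes described are 10 of the 19460 with an RNA level in the deposited table. They are the cohesin ring and genes that act on it, namely SMC1A, SMC3, RAD21, STAG1, STAG2, WAPL, ESCO2, SGO1, PTTG1 and ESPL1. They were picked by symbol in the authors' table of RNA changes and joined by gene identifier to the RNA levels of 6 libraries and to their splicing events. All 10 passed the filter on low RNA levels. The cells were T-47D, an established human luminal breast cancer line, wild type per the labels of the RNA libraries. They received 1 µM palbociclib, which blocks the G1 kinases CDK4 and CDK6, or its solvent DMSO for 24 h. The solvent is given as 0.1% for the ATAC-seq cultures. Each treatment had 3 replicates for poly(A) RNA sequencing and 3 biological replicates for ATAC-seq, in which the enzyme Tn5 cuts open chromatin. The titles of the RNA libraries number the replicates without calling them biological. All groups come from the same line, so the replicates do not sample other tumours.

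Cohesin is a ring of SMC1A, SMC3 and RAD21 with either STAG1 or STAG2 bound to it. It folds interphase chromatin into loops and holds sister chromatids together from their replication until anaphase. WAPL takes cohesin off chromatin, and ESCO2 acetylates SMC3 during S phase, which makes the ring hold. SGO1 protects cohesin at centromeres early in mitosis. PTTG1 is securin, which restrains ESPL1, the protease separase that cuts RAD21 at anaphase.

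RNA of all 10 genes fell with palbociclib, at a limma adjusted p under 0.05. By the same rule 22.9% of all 15869 tested genes fell and 20.9% rose. The median change of the 10 genes was -1.13 on the log2(FPKM + 1) scale, against 0.0023 over all tested genes. For 6 of the 10 the fall was 1 log2 unit or more, a size reached by 3.04% of tested genes. The 3 palbociclib libraries lay below the 3 DMSO libraries for each of the 10 genes. Over all tested genes the groups were apart in 54.7%, and apart with palbociclib lower in 28.2%. RNA was bulk, so fewer cells that express a gene and less RNA per cell cannot be told apart.

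**Figure D1:**
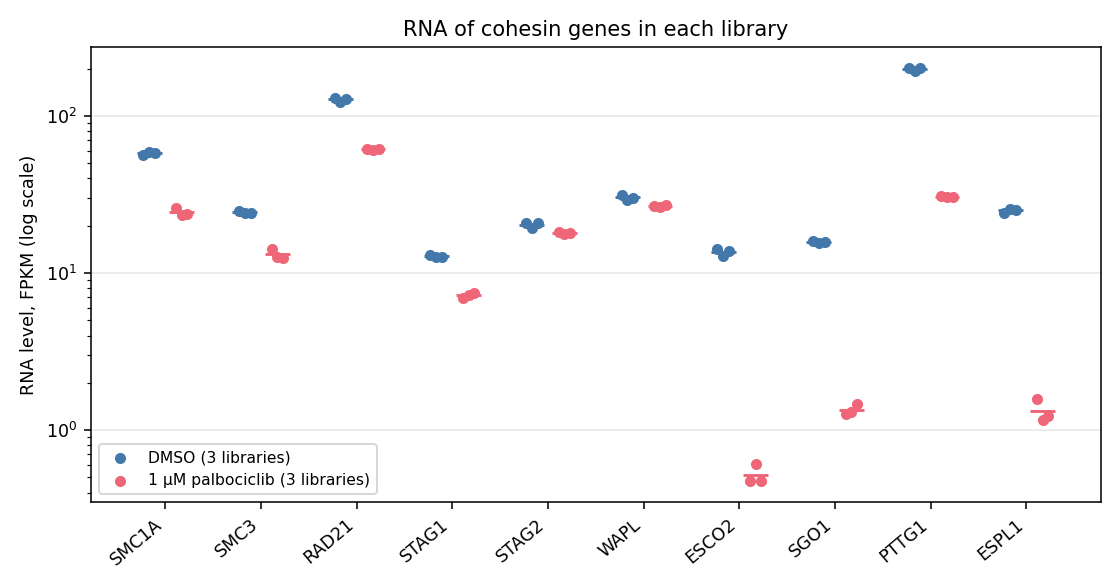
RNA level of the 10 cohesin genes in FPKM on a log axis, 3 DMSO libraries (blue) and 3 libraries with 1 µM palbociclib (red), points being libraries and bars their means. The red points lie below the blue ones for every gene, by a small step for STAG2 and WAPL and by the widest steps for ESCO2, SGO1 and ESPL1.

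The 6 RNA libraries had correlations of log2 levels of at least 0.995 within a treatment and at most 0.971 between treatments. The authors' deposited table gives the 10 genes mean normalized counts from 1375 for SGO1 to 24497 for RAD21. Counts in the 38121 ATAC-seq peaks summed to 12830062 to 18250496 per library. Of 8 markers of luminal breast epithelium, 7 rose, and their summed level went from 5419 to 5939 FPKM in DMSO to 7312 to 8084 FPKM with palbociclib. EPCAM was the eighth, with a change of -0.14. Of the 3 basal markers TP63 was measured, at 0.0429 to 0.113 FPKM. The fibroblast markers summed to 23.8 to 25.1 FPKM in DMSO and 24.6 to 26.8 with palbociclib, nearly all of it COL1A1. The leukocyte markers summed to at most 0.368 FPKM, and no endothelial marker was analysed here. The part of these levels in the results was not tested. Among called genes 47.7% rose, against 61.6% after quantile normalization and 68.9% after each library was centred on its median.

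The stretches before the start sites are shown for 4 of the genes, because 3 of them had deep falls in RNA. The other, STAG1, holds the lone match to an E2F element in the windows searched, 1 per gene. The stretches come from RefSeq on GRCh38.p14, whose promoter table held 8 of the 10 genes, not RAD21 or ESCO2. Each is the 250 bases before the start site, 5′ to 3′ on the gene's strand. Capitals mark matches on either strand. The E2F elements searched were TTCCCGC and its variants TTGGCGC as well as TTCGCGC. The cell cycle genes homology region (CHR) was searched as TTTGAA and in the variant TTTAAA, and the CCAAT box by its own letters.
PTTG1, chr5:160421605-160421854, plus strand: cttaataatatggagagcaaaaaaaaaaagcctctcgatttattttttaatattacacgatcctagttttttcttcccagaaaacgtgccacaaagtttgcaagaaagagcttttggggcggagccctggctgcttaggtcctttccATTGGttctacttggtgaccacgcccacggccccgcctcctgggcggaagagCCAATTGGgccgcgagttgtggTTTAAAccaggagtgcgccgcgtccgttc
ESPL1, chr12:53268049-53268298, plus strand: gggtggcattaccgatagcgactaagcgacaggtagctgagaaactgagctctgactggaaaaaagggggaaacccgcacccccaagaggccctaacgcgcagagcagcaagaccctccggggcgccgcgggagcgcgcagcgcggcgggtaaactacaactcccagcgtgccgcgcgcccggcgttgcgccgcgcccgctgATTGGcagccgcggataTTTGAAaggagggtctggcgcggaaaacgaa
SGO1, chr3:20186207-20186456, minus strand: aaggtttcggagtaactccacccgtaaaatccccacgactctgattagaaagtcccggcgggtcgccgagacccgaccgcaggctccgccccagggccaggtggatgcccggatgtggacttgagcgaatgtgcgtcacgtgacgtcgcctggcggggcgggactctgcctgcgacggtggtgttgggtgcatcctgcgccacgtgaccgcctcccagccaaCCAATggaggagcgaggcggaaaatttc
STAG1, chr3:136752379-136752628, minus strand: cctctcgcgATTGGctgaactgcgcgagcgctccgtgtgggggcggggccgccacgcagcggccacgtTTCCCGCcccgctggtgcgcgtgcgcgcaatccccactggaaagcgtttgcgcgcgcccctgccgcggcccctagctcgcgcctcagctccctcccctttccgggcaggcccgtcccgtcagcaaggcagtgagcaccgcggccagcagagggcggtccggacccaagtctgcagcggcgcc

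Positions of matches count from the start base as 0 and give the left end of the match on the gene's strand. PTTG1 had TTTAAA at -29 and 3 CCAAT boxes, at -103, -51 and -48, of which the last 2 overlap on opposite strands. ESPL1 had TTTGAA at -31 and a CCAAT box on the opposite strand at -48. SGO1 had a CCAAT box at -28 and no match to TTTGAA or TTTAAA, the CHR forms searched. STAG1 had TTCCCGC at -182. Its CCAAT boxes began at -241 and, outside the stretch shown, at 0.

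Over the full windows of 300 bases, which add the start base and those after it, a CHR match was found in 3 of the 8 genes (SMC3, PTTG1 and ESPL1) and in 24% of 35116 windows of all genes. A CCAAT box was found in 6 of the 8 (STAG1, STAG2, WAPL, SGO1, PTTG1 and ESPL1) and in 34.6% of all windows. An E2F match was found in 1 of the 8 and in 11% of all windows. SMC1A had no match to any of them in its window. For each of the 8 genes 1 window was searched, while the shares over all genes count every listed window. SMC1A, STAG2 and PTTG1 had further listed starts, whose windows were left out of the counts for the 8. The SGO1 window was that of its start at 20186206. The outer end of that gene, at 20186886, had no listed window and was not searched. In SMC3 the match lay on the opposite strand at -151. The base composition of the windows ran from 50.7% G and C in PTTG1 to 76.3% in WAPL.

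RNA of the 5 ring genes fell, by 43.5% to 57.9% of the DMSO mean for SMC1A, SMC3, RAD21 and STAG1 and by 11.5% for STAG2. SMC1A, an ATPase arm of the ring, stood at 56.5, 58.9 and 57.7 FPKM in DMSO replicates 1 to 3 and at 25.9, 23.3 and 23.7 FPKM with palbociclib. The groups were well apart, and the change was -1.22 ± 0.046 (SE; limma adjusted p = 1.64e-07). SMC3, its partner arm, went from 24.9, 24.1 and 24.0 FPKM to 14.2, 12.7 and 12.5 FPKM. That is 54.1% of the DMSO mean, a change of -0.84 ± 0.054 (limma adjusted p = 5.96e-06). RAD21, the kleisin that closes the ring and is cut at anaphase, went from 130.4, 123 and 129 FPKM to 62.0, 60.4 and 61.4 FPKM. The replicates of each group lay close together, and the change was -1.05 ± 0.032 (limma adjusted p = 4.30e-08).

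STAG1 and STAG2 are paralogous subunits, of which a ring holds either. STAG1 went from 13.1, 12.6 and 12.6 FPKM to 6.97, 7.27 and 7.41 FPKM, a change of -0.74 ± 0.048 (limma adjusted p = 5.82e-06). STAG2 went from 20.7, 19.3 and 20.8 FPKM to 18.3, 17.6 and 17.9 FPKM, so that its groups were close but did not overlap. Its change was -0.17 ± 0.044 (limma adjusted p = 0.0151). The call for STAG2 was lost after quantile normalization (-0.085, limma adjusted p = 0.135) and median centring (-0.071, limma adjusted p = 0.223). It was also lost without DMSO replicate 1 (limma adjusted p = 0.0545) and without palbociclib replicate 2 (limma adjusted p = 0.0546). The share of STAG1 in the sum of both FPKM went from 38.7% ± 0.938 to 28.7% ± 0.952 (SD, n = 3 libraries each).

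WAPL, the release factor, also changed little. It stood at 31.6, 29.2 and 30.2 FPKM in DMSO and at 26.8, 26.5 and 27.0 FPKM with palbociclib. The groups did not overlap, and the change was -0.17 ± 0.040 (limma adjusted p = 0.00755). The call was lost after quantile normalization (-0.096, limma adjusted p = 0.0776) and median centring (-0.079, limma adjusted p = 0.137). Of all tested genes 24.1% had a change below that of WAPL and 24.9% below that of STAG2.

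ESCO2, SGO1, PTTG1 and ESPL1, which act in S phase and mitosis, fell furthest. ESCO2 went from 14.3, 12.8 and 13.7 FPKM to 0.477, 0.608 and 0.472 FPKM, which left 3.82% of the DMSO mean. Its change was -3.26 ± 0.071 (limma adjusted p = 4.43e-09), and the pseudocount of 1 FPKM makes this smaller than the fall in FPKM. SGO1 went from 16.0, 15.4 and 15.6 FPKM to 1.27, 1.31 and 1.46 FPKM, or 8.61% of the DMSO mean. Its change was -2.83 ± 0.058 (limma adjusted p = 3.31e-09).

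PTTG1 was the most abundant of the 10 in DMSO, at 202, 194 and 201 FPKM, and stood at 30.8, 30.5 and 30.3 FPKM with palbociclib. The change was -2.66 ± 0.030 (limma adjusted p = 3.90e-10). ESPL1 went from 24.2, 25.7 and 25.1 FPKM to 1.59, 1.15 and 1.23 FPKM, which left 5.30%. Its change of -3.49 ± 0.076 (limma adjusted p = 4.78e-09) was the largest fall of the 10 on the log2(FPKM + 1) scale, on which 0.107% of tested genes fell further. In FPKM, with no pseudocount, the order turns, and ESCO2 kept the smallest share of its DMSO mean. In the authors' deposited table the log2 changes, without a pseudocount, were -4.71 for ESCO2, -4.25 for ESPL1, -3.54 for SGO1 and -2.70 for PTTG1.

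Ordered by level in DMSO the genes ran PTTG1, RAD21, SMC1A, WAPL, ESPL1, SMC3, STAG2, SGO1, ESCO2 and STAG1. The ranges of ESPL1 and SMC3 overlapped, as did those of ESCO2 and STAG1. With palbociclib the order was RAD21, PTTG1, WAPL, SMC1A, STAG2, SMC3, STAG1, SGO1, ESPL1 and ESCO2, where SGO1 and ESPL1 overlapped. ESPL1 stood 5th of the 10 in DMSO and 9th with palbociclib.

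Ratios between genes of one library set these falls side by side. The ratio of PTTG1 to ESPL1, inhibitor to protease, was 8.35, 7.53 and 8.02 in DMSO and 19.4, 26.4 and 24.6 with palbociclib. That of STAG1 to STAG2 went from 0.631 ± 0.0249 to 0.403 ± 0.0186 (SD, n = 3). ESCO2 to ESCO1, the acetyltransferase that is not tied to S phase, went from 1.78 ± 0.141 to 0.0611 ± 0.00762. WAPL to SMC3 went up from 1.25 ± 0.0316 to 2.04 ± 0.146. Within the ring, SMC1A to SMC3 went from 2.37 ± 0.0925 to 1.85 ± 0.0421 and RAD21 to SMC3 from 5.25 ± 0.122 to 4.68 ± 0.296. The groups were apart in all 6 ratios, and each had an exact two-sided permutation p = 0.1, the smallest that 3 against 3 libraries can give (0.1 after Benjamini-Hochberg adjustment over the 6). None can pass 0.05 at this size. Both ratios with a gene near 1 FPKM shrank with a pseudocount of 1 on both genes. The log2 change of PTTG1 to ESPL1 was then 0.82 in place of 1.55, and that of ESCO2 to ESCO1 was -3.40 in place of -4.87.

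**Figure D2:**
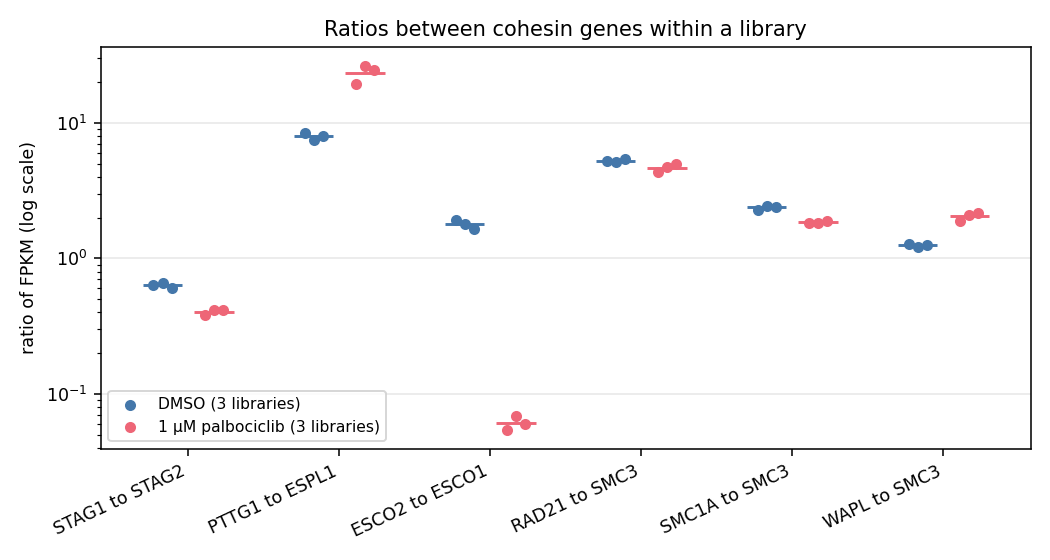
Ratio of FPKM between genes of the same library on a log axis, 3 DMSO libraries (blue) and 3 palbociclib libraries (red), bars being means. PTTG1 to ESPL1 and WAPL to SMC3 are higher with palbociclib, and the other 4 ratios are lower.

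Of 39 other genes of the cohesin pathway, 35 were matched and 34 tested. With palbociclib 28 fell, 0 rose and 6 did not pass the limma test, with a median change of -1.51. By the same test 22.9% of all tested genes fell. The gene lists were chosen with earlier results of these data known. After quantile normalization or median centring 2 of the other pathway genes, MAU2 and ESCO1, rose. The loader changed little: NIPBL, which loads cohesin, fell by 0.13 (limma adjusted p = 0.0420), and its partner MAU2 had a change of 0.05. The call for NIPBL was lost after quantile normalization or median centring, without an intensity trend, and without each of 5 of the 6 libraries. PDS5A and PDS5B, which bind the ring and serve both its release and its hold, changed by -0.37 and -0.23. CTCF, the factor at which cohesin stops, fell by 0.26. CDCA5, sororin, which counters WAPL, fell by 3.48, from 51.5 ± 0.708 to 3.72 ± 0.194 FPKM (SD, n = 3). SGO2, the relative of SGO1, fell by 1.98. ESCO1 (0.14) and HDAC8 (-0.04), which removes the acetyl mark from SMC3, did not pass the test.

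Genes of cohesion at the replication fork fell in 10 of 11 cases, with a median of -1.71. DSCC1, of the alternative clamp loader, fell by 2.73. CHTF18, its largest subunit, fell by 1.74. CHTF8, another subunit of that loader, had a change of 0.03. RFC2, RFC3, RFC4 and RFC5, the small subunits of the clamp loaders, had changes from -2.17 to -1.63, and the helicase DDX11 one of -1.71. TIMELESS and TIPIN, partners in the complex that protects the fork, changed by -1.39 and -0.77. WDHD1, which ties the replicative helicase to DNA polymerase alpha, changed by -1.71. Among kinases and phosphatase subunits that act on cohesin in mitosis 9 of 10 fell, where 22.9% of all tested genes did. The changes were -3.86 for AURKB, -3.43 for CDK1, -3.04 for BUB1 and -2.12 for HASPIN. PLK1, which phosphorylates STAG2, fell to 8.22% of its DMSO mean. The regulatory phosphatase subunits PPP2R5A, PPP2R5C, PPP2R5D and PPP2R5E had changes from -0.41 to -0.11, and the scaffold PPP2R1A had a change of -0.09.

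CDC20, which turns on the destruction of securin, fell by 2.94. CCNB1, which inhibits separase with CDK1, fell by 2.67. FZR1, the other activator of that ligase, fell by 0.25. The calls for FZR1 and PPP2R5A were lost under both scalings, and without each of 4 and 5 single libraries. That for PPP2R5A was also lost without an intensity trend (limma adjusted p = 0.0863). Of the meiotic subunits, REC8 did not pass the test, at 1.32 to 2.93 FPKM in DMSO and 2.01 to 4.22 with palbociclib. SMC1B was below the filter, at up to 0.164 FPKM. RAD21L1, STAG3, PTTG2 and PTTG3P were not analysed here.

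The other SMC complexes are condensin, which compacts mitotic chromosomes, and SMC5/6, which acts in DNA repair. All 8 condensin genes fell, with a median of -1.98, where 22.9% of all tested genes fell. NCAPG fell to 6.68% of its DMSO mean and NCAPH2 to 43.4%. The SMC arms of condensin, SMC2 and SMC4, changed by -2.06 and -1.68. Of 6 genes of the SMC5/6 complex 4 fell, 1 rose (NSMCE1, 0.14, limma adjusted p = 0.0351) and NSMCE3 did not pass, with a median of -0.34. SMC5 and SMC6 changed by -0.56 and -0.60. The call for NSMCE1 was lost without an intensity trend and without each of 4 libraries. The difference between complexes was not tested.

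**Figure D3:**
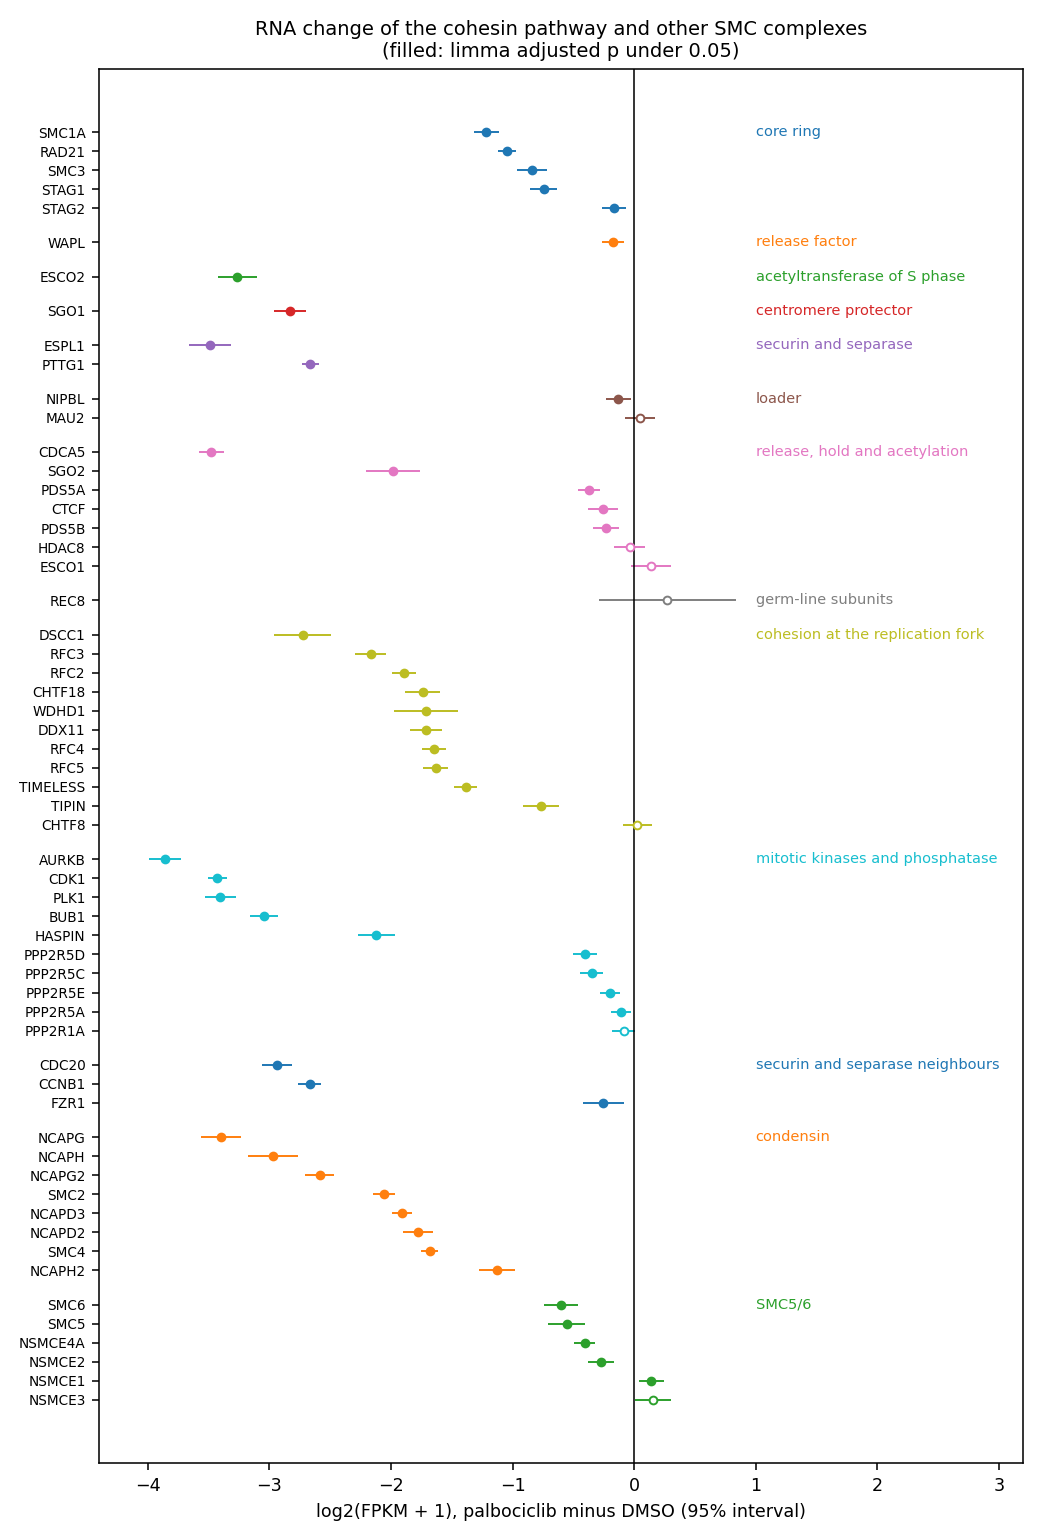
Change of log2(FPKM + 1), palbociclib minus DMSO, with 95% intervals from limma, for the 10 cohesin genes, 34 other genes of the pathway and 14 genes of condensin and SMC5/6, grouped by role. Filled points passed an adjusted p of 0.05, and most of them lie left of 0; at other scalings MAU2, ESCO1 and NSMCE3 also pass on the right, and the sign of HDAC8 and PPP2R1A turns.

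The genes whose levels over the 6 libraries were most like each member were found by the distance between their log2(FPKM + 1) values after the gene's own mean was taken off. ESCO2 was nearest to FANCI and HMMR, SGO1 to MELK and KIF4A, PTTG1 to FAM83D and CIP2A, and ESPL1 to TCF19 and PCLAF. RAD21 was nearest to AUNIP, SMC1A to LHX2 and PIM1, SMC3 to INSIG1 and CFAP20, and STAG1 to ODF2 and NUP107. STAG2 was nearest to HTATIP2 and SDHD, and WAPL to PITPNB and ACVR2B. The 6 libraries fall into 2 treatments, and all these genes share that split.

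Changes of chromatin near the starts of 5 of the genes ran from -0.36 to 0.10 on the log2 scale. Within 1 kb of a start site lay 7 ATAC-seq peaks, of 5 of the genes, and 2 of them fell in the edgeR quasi-likelihood test. Of all 38121 peaks 6.46% fell and 5.41% rose, and of the 6411 within 1 kb of any listed start 11.1% fell and 1.86% rose. The median change of the 7 peaks was -0.14, against -0.04 over all peaks near starts. Scaled by library totals alone, 55.9% of called peaks rose, against 45.5% with TMM scaling.

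The PTTG1 peak covers its start (chr5:160421706-160422367, GRCh38) and begins inside the stretch of PTTG1 printed above. It stood at 53.7, 59.4 and 53.0 CPM (counts scaled by library size) in DMSO and at 44.1, 42.6 and 43.3 CPM with palbociclib, from 608 to 1083 reads per library. The groups were apart, with a change of -0.36 ± 0.067 (SE; edgeR adjusted p = 0.000100). The RAD21 peak over the start (chr8:116874135-116875134), which also overlaps RAD21-AS1 and MIR3610, stood at 72.3, 66.1 and 59.1 CPM in DMSO and 60.3, 53.6 and 55.9 CPM with palbociclib. Its groups overlapped, and its change was -0.21 ± 0.065 (edgeR adjusted p = 0.0207). The call for RAD21 was lost with the DESeq2 Wald test (adjusted p = 0.0771) and an offset smoothed on abundance (edgeR adjusted p = 0.0631). It was also lost without DMSO replicate 1 (edgeR adjusted p = 0.204), DMSO replicate 2 (edgeR adjusted p = 0.0731) or palbociclib replicate 2 (edgeR adjusted p = 0.0996).

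The other start peaks did not pass the test. The SGO1 peak, shared with SGO1-AS1, stood at 80.0, 75.6 and 69.6 CPM in DMSO and 70.2, 72.0 and 72.1 CPM with palbociclib, a change of -0.07 with a 95% interval from -0.19 to 0.05. The ESCO2 peak, 416 bases from the start and overlapping CCDC25, had a change of -0.09 with an interval from -0.27 to 0.10. Peak counts and RNA levels are different measures, so the sizes of these changes were not compared with those of RNA. The 3 STAG2 peaks had changes of -0.18, -0.14 and 0.10 (edgeR adjusted p = 0.176, 0.451 and 0.533). The deposited set held no peak within 1 kb of the start of SMC1A, SMC3, STAG1, WAPL or ESPL1. Accessibility at these starts was therefore not measured here.

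Of 7 peaks inside the genes and farther from a start, 3 passed the test, 1 lower and 2 higher, where 6.46% and 5.41% of all peaks did. The other 4, 3 in STAG1 and 1 in ESPL1, had changes from -0.14 to 0.27 (edgeR adjusted p from 0.165 to 0.617). A peak 2229 bases from the ESCO2 start (chr8:27774203-27774764) stood at 89.3, 84.3 and 84.3 CPM in DMSO and 76.5, 70.1 and 77.8 CPM with palbociclib (-0.20 ± 0.057, edgeR adjusted p = 0.0126). A peak in STAG1 (chr3:136642788-136643112) rose from 1.81, 2.08 and 3.52 CPM to 4.04, 3.88 and 4.13 CPM (0.70 ± 0.215, edgeR adjusted p = 0.0220), on 23 to 66 reads. A peak in ESPL1 (chr12:53279658-53280327) stood at 6.68, 6.91 and 6.62 CPM in DMSO and at 10.8, 6.73 and 10.8 CPM with palbociclib (0.49 ± 0.158, edgeR adjusted p = 0.0321). Palbociclib replicate 2 lay among the DMSO libraries there. The ESCO2 call was lost without DMSO replicate 1 (edgeR adjusted p = 0.0775) or palbociclib replicate 2 (edgeR adjusted p = 0.0990). The calls for STAG1 and ESPL1 were lost with DESeq2 (adjusted p = 0.128 and 0.113), with the smoothed offset (edgeR adjusted p = 0.0635 and 0.0580) and without several single libraries. For STAG1 these were DMSO replicate 1 (0.136), DMSO replicate 2 (0.147) and palbociclib replicate 1 (0.0674), as edgeR adjusted p. For ESPL1 they were all but palbociclib replicate 2, with edgeR adjusted p up to 0.222.

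**Figure D4:**
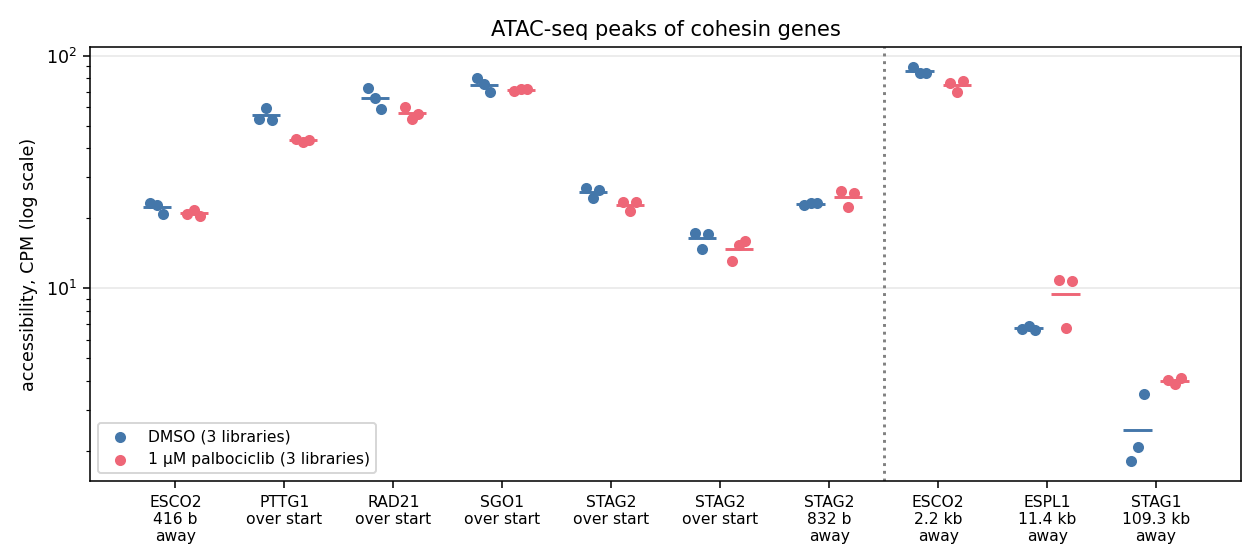
ATAC-seq signal in CPM on a log axis for the 7 peaks within 1 kb of a start (left of the dotted line) and the 3 peaks inside genes that passed the edgeR test (right), 3 DMSO (blue) and 3 palbociclib (red) libraries, bars being means. The groups are apart for PTTG1, 1 of the STAG2 start peaks and the ESCO2 and STAG1 peaks inside genes, and overlap for the others.

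Splicing of the 10 genes showed no event that passed the test. The authors' rMATS tables listed 152 events in them, and 44 held enough reads and a large enough share of them in the rarer form to be tested, with none in ESCO2 or PTTG1. With the edgeR quasi-likelihood test 0 were called and 0 had an unadjusted p under 0.05, the smallest being 0.0565. Of all 37445 tested events 0.35% were called and 8.53% had an unadjusted p under 0.05. The authors' deposited tables give an FDR under 0.05 to 2 of the 152 events, and 1 of these was among the 44. By that FDR 2.47% of all listed events and 3.82% of the 37445 were called. The 3 tested events of SGO1 and 5 of ESPL1 had 12 to 206 reads per library with palbociclib.

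The tested STAG2 exon with most reads, of 111 bases (chrX:124090854-124090964), was included in 16.2%, 13.2% and 13.5% of transcripts in DMSO and in 15.0%, 11.1% and 13.3% with palbociclib. These values overlap, on 346 to 436 reads per library. The log2 odds of inclusion changed by -0.14 with a 95% interval from -0.63 to 0.35 (edgeR adjusted p = 0.921). A 51-base exon of SGO1 (chr3:20175005-20175055) was included in 91.8%, 87.2% and 90.4% in DMSO and in 48.0%, 92.2% and 90.8% with palbociclib, on 12, 19 and 16 reads there. Without palbociclib replicate 1, which had 12 reads, the difference of -12.8 percentage points became 1.73. This exon was picked after its values were seen.

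Of the tested events whose groups were apart, those with the largest difference per gene were a pair of exons of ESPL1 listed as mutually exclusive (-6.26 percentage points, edgeR adjusted p = 0.921), one of STAG1 (2.65, edgeR adjusted p = 0.962) and one of WAPL (-2.21, edgeR adjusted p = 0.825). Groups were apart in 4 of the 44 tested events, and the share over all tested events was not computed. Events too one-sided to be tested also had groups apart, among them an exon of STAG1 and one of SGO1. In the authors' deposited tables their differences were 4 and 3 percentage points (FDR 0.0645 and 1). That SGO1 exon had only 11, 10 and 14 reads in palbociclib replicates 1 to 3. The 2 events that the authors' deposited tables call were named for that reason. The 103-base exon of STAG1 (chr3:136623146-136623248) was included in 96.3%, 90.3% and 94.4% in DMSO and in 98.3%, 98.2% and 97.7% with palbociclib (authors' deposited FDR 0.00868). Its groups were apart, and it was not tested here because too few of its reads came from the skipped form. An alternative 5′ splice site of ESPL1 (authors' deposited FDR 0.0394) had edgeR adjusted p = 0.787, on 12 to 15 reads per library with palbociclib.

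With no filter on the rarer form 1 event of the 10 genes was called, and 0.053% of all 118887 events were. It is an intron of SMC3 (chr10:110601131-110601636) that was retained in 0.0719%, 0.373% and 0.318% in DMSO and in 1.05% to 1.30% with palbociclib (edgeR adjusted p = 0.000875). The groups were apart, and the levels were low in both. The FDR of this event in the authors' deposited tables is 1.

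**Figure D5:**
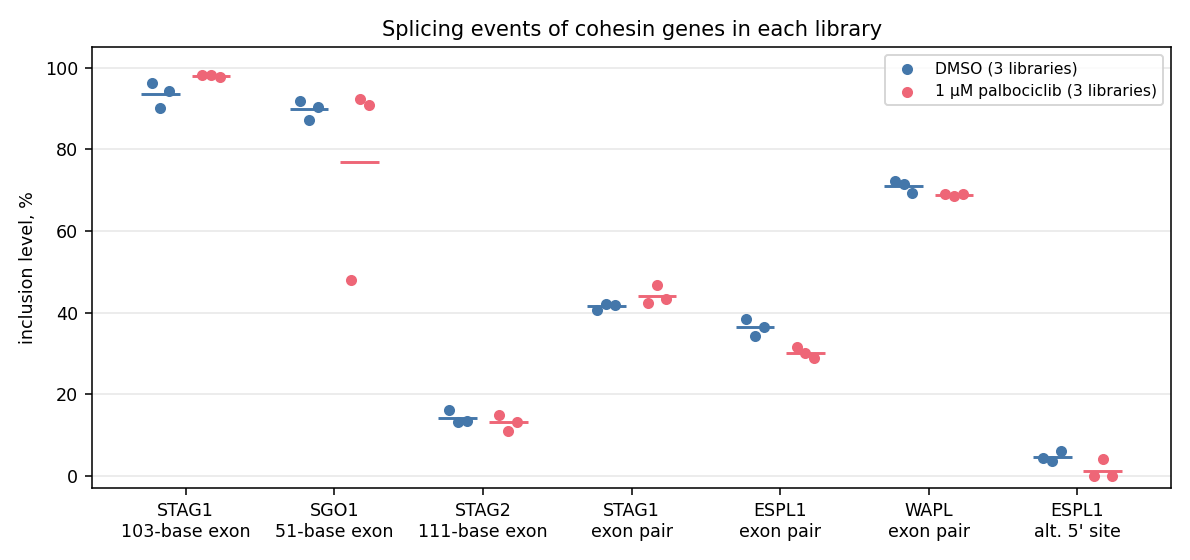
Inclusion level in percent for 7 splicing events of cohesin genes, 3 DMSO (blue) and 3 palbociclib (red) libraries, bars being means. The groups overlap for the STAG2 and SGO1 exons and for the alternative 5′ splice site of ESPL1. For the SGO1 exon 1 palbociclib library stands at 48.0%.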

How the data were processed

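T-47D RNA-seq and ATAC-seq libraries were grouped by their labels, 3 per treatment and assay. The members and gene lists were chosen with earlier results of these data known. The deposited RNA values are FPKM. Per the submitters' processing notes fastp 0.23.2, Salmon 1.10.2, STAR 2.7.10b and DESeq2 1.44.0 were used for RNA, and Bowtie2, Picard and MACS3 for ATAC-seq, with GRCh38 named for both; their order and options are not given in the sources used here. The authors' deposited table of changes holds a mean normalized count (a signal value), log2 fold changes, p-values and a Wald score, as its header names them. The rMATS tables deposited by the authors hold inclusion and skipping counts per event and an inclusion level score. For ATAC-seq the authors deposited read counts in 1 shared set of peaks, from featureCounts 2.0.6 run on deduplicated alignments, per the file headers.

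RNA was tested with limma 3.58.1 (R 4.3.3, intensity trend) on log2(FPKM + 1) for genes averaging 0.5 FPKM or more, two-sided, with Benjamini-Hochberg adjustment over all of them. Changes understate the fall of low genes because of the pseudocount. Peaks were tested with edgeR 4.0.16 (quasi-likelihood, TMM, filterByExpr). A peak was given to a gene within 1 kb of its RefSeq start or inside it. Splicing used that edgeR test on both forms of an event, with library terms and an interaction of form and treatment, adjusted within event type. Events averaging under 20 reads per library, or with under 5% of the reads of all libraries (not length-adjusted, unlike the inclusion level) in the rarer form, were left out. Recomputed inclusion levels matched the deposited ones to within 0.0005. The limma test, the edgeR test of peaks and the edgeR test of retained introns were checked on simulated data. The simulated introns had no spread between replicates beyond the sampling of reads. The other event types, the tests of ratios and DESeq2 were not checked in this way. All 10 members are named, with listed pathway genes by group, the 2 genes most alike in level to each member (1 of them is not reported here), and per gene the tested splicing event of largest difference among those whose groups were apart. Alternatives covered the pseudocount (0.1), filters (mean FPKM 5, 50 reads), scaling, trend, DESeq2 1.42.0, the replicate block and leaving out each library. Intervals cover 95%.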

Additional observations from a re-analysis of the deposited data

How the results depend on the processing

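Every direction of the 10 members' RNA changes was kept under all alternatives run, with 8 to 10 of the 10 genes called. Quantile normalization and median centring gave -0.085 and -0.071 for STAG2 and -0.096 and -0.079 for WAPL, none called. Leaving out 1 library gave STAG2 changes from -0.20 to -0.15. Both scalings raised the other pathway genes called higher from 0 to 2, and the condensin and SMC5/6 genes called higher from 1 to 2, a count of 0 to 1 with 1 library left out. Median centring called 5468 genes higher against 3312. Changes turned sign, uncalled, for HDAC8 (0.056 and 0.059 under quantile normalization and median centring), PPP2R1A (0.0092 under median centring), CHTF8 (-0.018 to 0.064 with 1 library left out, -0.0026 without palbociclib replicate 2) and the SGO1 exon (-20.4 to 1.73 percentage points with 1 library left out).

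DESeq2 called 1533 peaks lower and 981 higher, against 2464 and 2061. With 1 library left out the counts ran from 1557 to 2176 lower and from 1103 to 1874 higher. Start peaks of the members called lower went from 2 to 1 with DESeq2 and the smoothed offset, and ran from 1 to 2 with 1 library left out. Within 500 bases 6 peaks lay near a member's start and 2 fell, and within 5 kb 9 and 3. Against 131 splicing events called, there were 63 without the filter on the rarer form (1 of a member), 66 to 131 with 1 library left out and 1432 among the tested events by the authors' deposited FDR (1 of a member). The cause of these differences was not tested.

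Replicate numbers were not shown to pair libraries: deviations of same-numbered libraries correlated at 0.106, -0.0051 and 0.0879 for RNA, 0.0052, 0.0389 and -0.0251 for ATAC-seq and 0.0110, -0.0022 and 0.0182 for splicing. With a replicate block 3633 genes fell and 3330 rose, 2470 peaks fell and 2133 rose, and 251 splicing events were called. In that fit PPP2R1A was also called (limma adjusted p = 0.0449). The paired sign-flip test of each ratio gave an exact p = 0.25, the smallest that 3 pairs allow. Single splicing events, such as the ESPL1 5′ splice site and the SGO1 exon, had few reads, at 12 to 19 per palbociclib library. The SGO1 exon had 143 to 193 reads per DMSO library.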
